A study of Mus musculus with 8 samples.

Results

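The genes described here encode the subunits of the mitochondrial respiratory chain and ATP synthase, from both the mitochondrial and the nuclear genome, as measured in mouse white adipose tissue. Members were the protein-coding genes whose symbols carry the family names (mt-Nd, mt-Co, mt-Cytb, mt-Atp, Ndufa, Ndufb, Ndufc, Ndufs, Ndufv, Uqcr, Cox4 to Cox8 and Atp5), with Sdha, Sdhb, Sdhc, Sdhd and Cycs, and a mean of at least 1 CPM (count scaled to library size). The rule found 105 genes among 37046 features, 13 of them mitochondrially encoded and 92 nuclear. Of the nuclear genes, 83 encode subunits, relatives of subunits such as Cox7a2l, or cytochrome c. Another 9 share the name stem but encode complex I assembly factors (Ndufaf1 to Ndufaf8) or the coupling factor Atp5s. All 105 were among the 15184 genes that passed the filter on low counts and were tested. The level rule left out 3 protein-coding genes: Cox6a2 at a mean of 0.439 CPM, and Cox7b2 and Cox8c, both listed at 0.

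The study took the tissue from female wild-type C57BL/6J mice, an inbred laboratory strain. The control group (4 libraries) received PBS, and the other group (4 libraries) received endostatin at 50 mg/kg, each by tail vein. Endostatin is a collagen XVIII fragment with known antiangiogenic activity. All mice lost access to food after the injection, and tissue was taken 2 h after it. Libraries 1 and 2 of each group are labelled batch 1 and libraries 3 and 4 batch 2; the sources used here give no age. The labels call the tissue epididymal although the mice were female, and 6 of 6 epididymis and testis markers were at 0 in every library. The series text names 4 mice and leaves unsaid whether that is the number in each group or in all, in which case a group would hold fewer animals than libraries. Since no label ties a library to a mouse, p-values reflect spread among these samples, some of which could be technical.

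The respiratory chain passes electrons from NADH (complex I) and succinate (complex II) through complex III, cytochrome c and complex IV to oxygen, and complex V uses the resulting proton gradient to make ATP. Complexes I, III, IV and V are built from both genomes. The mitochondrial DNA encodes the hydrophobic core subunits, transcribed as long precursors that are cut into mRNAs, some of which carry overlapping genes. Nuclear mRNAs are made and translated outside the organelle. White adipocytes hold fewer mitochondria than brown adipocytes, and use them for fatty acid and triglyceride synthesis as well as for ATP.

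Libraries held 15826783 to 23786594 estimated counts. The treatment term called 0 of 15184 genes by edgeR's quasi-likelihood test (lowest adjusted p = 0.409; 485 genes, 3.19%, at an unadjusted p under 0.05), 4 by DESeq2 (0.0263%) and 0 by limma-voom. The 9 white adipocyte markers summed to 27082 to 52315 TPM (a Salmon estimate scaled to transcript length and library total), lowest in control 3. The 16 skeletal muscle markers, all of them detected, summed to 394 and 666 TPM in control 1 and control 4 and to 92.3 to 166 in the 6 other libraries. For 9 oviduct and uterus markers the sums were 601 TPM (control 3), 446 TPM (endostatin 4) and 30 to 71.8 TPM elsewhere. In endostatin 4, Ltf alone stood at 298 TPM. Krt8, Epcam, Pax8 and Msx1 were also above all libraries elsewhere, while Ovgp1, Foxj1, Pgr and Muc16 were not. The 7 brown or beige fat markers that are not members reached 192 TPM in control 3 and 48.9 in endostatin 4, and 6.35 to 28.3 elsewhere. The 5 macrophage markers summed to 1062 and 1171 TPM in endostatin 3 and endostatin 4, where the mitochondrial mRNAs took their lowest share of counts, and to 518 to 772 TPM in the 6 other libraries; their part in those levels was not tested. The hepatocyte list, some of whose genes adipocytes also express, summed to 1407 to 5341 TPM. The description of endostatin 4 repeats the read file stub of endostatin 3 under its own library name. In bulk tissue, fewer cells of a type and less RNA per cell cannot be told apart.

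The 13 mitochondrial mRNAs lie close together on the mitochondrial chromosome, and 3 features of their sequences bear on how well each can be measured. On GRCm38, 12 are on the plus strand, from mt-Nd1 (chrM:2751-3707) to mt-Cytb (chrM:14145-15288), and mt-Nd6 (chrM:13552-14070) is on the minus strand. The annotated sequence of mt-Atp8 shares its last 43 bases, 21.1% of its 204 bases, with the start of mt-Atp6. Reads in that stretch belong to either gene. mt-Nd4l shares its last 7 bases with the start of mt-Nd4. Each annotated gene is called an mRNA here, although mt-Atp8 and mt-Atp6 lie on the same mRNA, as do mt-Nd4l and mt-Nd4. The stretch shared by mt-Atp8 and mt-Atp6, from GENCODE M21, holds the mt-Atp6 start codon at its beginning and the mt-Atp8 stop codon at its end.
mt-Atp8 and mt-Atp6: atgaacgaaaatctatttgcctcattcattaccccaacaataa
Nuclear chromosome 1 carries near-perfect copies of a part of the mitochondrial genome, annotated as the pseudogenes Gm28438, Gm10925 and Gm28661. Gm28438 (chr1:24612775-24613119 on GRCm38) matches mt-Nd3 over 345 of its 348 bases with the single substitution T3C, counted from the first base of mt-Nd3. The first 17 bases of each are shown, with that base in capitals.
mt-Nd3: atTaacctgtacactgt
Gm28438: atCaacctgtacactgt
Gm28661 matches mt-Co2 over 681 of 684 bases and Gm10925 matches mt-Atp6 over 678 of 681 bases, both with 0 mismatches. Salmon, the program behind the deposited counts, has to divide reads among such copies, and values of these 3 genes are uncertain for that reason.

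Per length, all mitochondrial mRNAs except mt-Nd3 and mt-Nd6 had a higher mean level than any nuclear member. Mean levels ran from 1148 TPM (mt-Nd3) and 1844 TPM (mt-Nd6) through 14575 TPM (mt-Co1) to 17425 TPM (mt-Atp8). The value of mt-Nd3 leaves out the reads given to its nuclear copy Gm28438. That of mt-Atp8 rests on an effective length of only 29.7 to 30 bases. Among nuclear genes, Atp5b, the catalytic beta subunit of ATP synthase, was highest at 1903 TPM, ahead of Cox8a at 1306 and Cox4i1 at 1224, both of complex IV. The medians of the nuclear classes were 181 TPM for the core of complex I, 196 for its accessory subunits, 222 for complex II, 374 for complex III, 299 for complex IV and 344 for complex V. Cycs, the somatic cytochrome c gene, averaged 45.1 TPM. The 13 mitochondrial mRNAs together exceeded the 83 nuclear mRNAs in every library, with a ratio of summed TPM of 4.2, 5.68, 3.03 and 2.77 in controls 1 to 4 and of 4.8, 4.5, 2.06 and 2.09 in endostatin 1 to 4.

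The mitochondrial mRNAs separated the libraries by batch. Together they made up 4.58%, 5.19%, 2.82% and 3.31% of all counts in controls 1 to 4, and 4.44%, 4.23%, 2.21% and 2.13% in endostatin 1 to 4. All 13 were lower in every library of batch 2 than in any library of batch 1, a pattern seen in 3.29% of all genes tested. Their median log2 fold change for batch 2 minus batch 1 was -1.09, against 0.01 over all genes and -0.15 over the 83 nuclear genes. At the level of the sum, batch 1 held 47974 ± 4122 CPM and batch 2 25389 ± 6624 CPM (SD, n = 4 each).

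**Figure D1:**
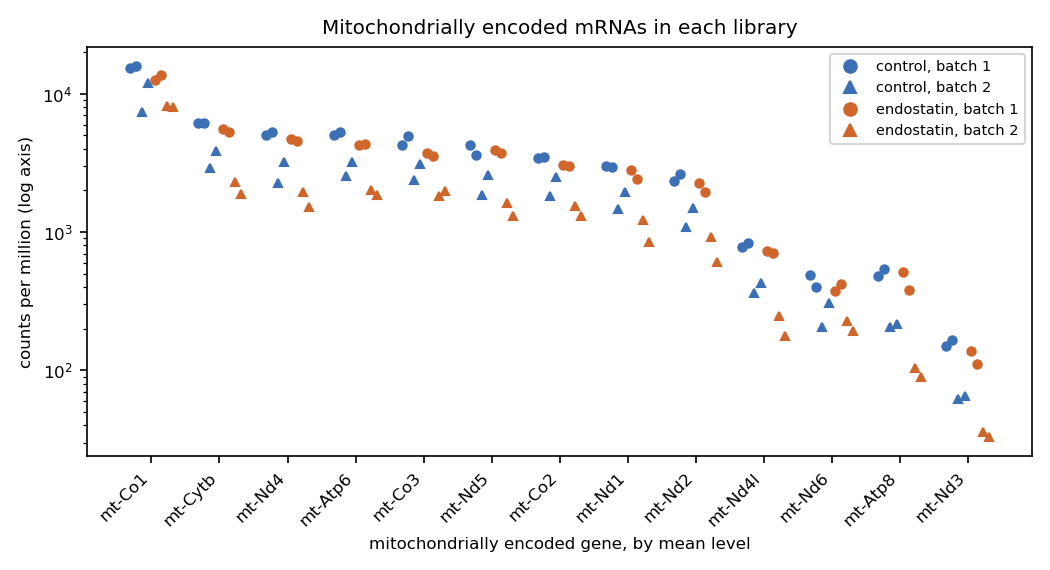
Level of each of the 13 mitochondrially encoded mRNAs in each of the 8 libraries, in CPM on a log axis; genes are ordered by mean level, colour gives the treatment and shape the batch. For every gene the 4 triangles of batch 2 lie below the 4 circles of batch 1, and the endostatin triangles are the lowest pair except in mt-Co1 and mt-Nd6.

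By edgeR's test, 6 genes (0.0395%; 1 higher, 5 lower) passed the threshold in the batch term, and mt-Nd3, a small subunit of the complex I membrane arm, was the member among them. The share of genes called lower was 0.0329%. Gm28438, the nuclear copy that divides reads with mt-Nd3, was also called lower (log2 difference -1.85 ± 0.17, adjusted p = 0.0178). These calls are not independent, and 5 genes passed with nuclear copies added to their mitochondrial genes. mt-Nd3 stood at 149, 165, 61.9 and 65.4 CPM in controls 1 to 4 and at 138, 111, 35.8 and 32.8 CPM in endostatin 1 to 4. No batch 2 value came near the lowest of batch 1. The difference on the log2 scale was -1.58 ± 0.14 (SE), with an adjusted p of 0.0178. This call was lost with library sizes alone in place of TMM (-1.47, adjusted p = 0.0683), without control 1 (0.0578), without control 2 (0.16), without endostatin 2 (0.133), without endostatin 3 (0.117) and without control 1 and control 4 together (0.185); the log2 values in the 5 fits without libraries ran from -1.54 to -1.72. With its nuclear copies added, mt-Nd3 stood at 360, 429, 144 and 140 CPM in the controls and 329, 243, 73.8 and 69.1 CPM with endostatin, and the batch difference was -1.73 ± 0.16 (adjusted p = 0.0214).

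The other 12 mitochondrial mRNAs had batch differences from -1.75 ± 0.22 (mt-Atp8) to -0.70 ± 0.27 (mt-Co1), with adjusted p from 0.0979 to 0.499 in edgeR. All 13 had an unadjusted p under 0.05 in the lower direction, against 4.54% of all genes. Tools differed in the number of calls: DESeq2 called all 13 lower (0.566% of all genes were called lower) and limma-voom called mt-Nd3 and mt-Atp8 (0.0527%). mt-Co1, which encodes the catalytic subunit of complex IV, stood at 15292, 16009, 7419 and 11894 CPM in the controls and 12546, 13686, 8192 and 7983 CPM with endostatin. mt-Cytb, the mitochondrial subunit of complex III, stood at 6157, 6135, 2921 and 3878 CPM in the controls and at 5537, 5316, 2288 and 1893 CPM with endostatin. Both genes keep the batches apart, but control 4 lies closest to batch 1 in each.

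Within the mitochondrial set the size of the batch difference varied with transcript length at its short end. The 3 shortest mRNAs, mt-Atp8 (204 bases), mt-Nd4l (297 bases) and mt-Nd3 (348 bases), had the largest differences, at -1.75, -1.39 and -1.58. The 10 mRNAs of 519 bases or more lay between -1.21 and -0.70 with no such order, and Spearman's rho between length and batch difference was 0.39 over the 13 genes, which share the same libraries and chromosome. Between mean CPM and batch difference rho was higher, at 0.571. The 3 shortest genes were also among those with the lowest CPM, so length and level cannot be told apart here. Over all genes tested, the median batch difference was 0.05 in 31 genes under 300 bases and 0.21 in 85 genes of 300 to 400 bases. Those genes were not matched to the mitochondrial ones in level, and the part of length was not tested. The gap between transcript length and effective length, which reflects the fragment size, was 230.7 to 233.1 bases in batch 1 and 226.7 to 229.6 bases in batch 2, and its part in the result was not tested. mt-Nd6, the mRNA read from the opposite strand, encodes a complex I membrane subunit; it stood at 486, 402, 205 and 308 CPM in the controls and 374, 421, 228 and 194 CPM with endostatin, with a batch difference of -0.85 ± 0.15.

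**Figure D2:**
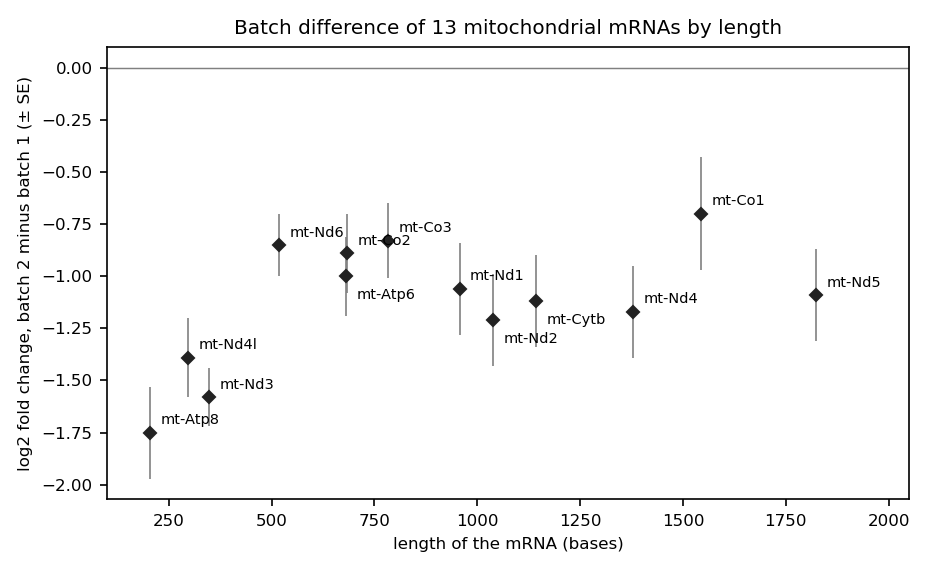
Batch difference (log2 fold change, batch 2 minus batch 1, ± SE from the edgeR fit) of the 13 mitochondrial genes against annotated length in bases. The axis calls this the length of the mRNA, which it is not for mt-Atp8, mt-Atp6, mt-Nd4l and mt-Nd4. All points lie below 0, and the 3 shortest genes lie between -1.39 and -1.75.

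Endostatin libraries had lower mean levels of the mitochondrial mRNAs, but no member passed the test. All 13 log2 fold changes for endostatin minus control were below 0 (53.4% of all genes were), from -0.65 ± 0.21 in mt-Atp8 to -0.22 ± 0.15 in mt-Nd6, with a median of -0.43 against -0.01 over all genes. The summed level was 50738, 52261, 24643 and 34875 CPM in controls 1 to 4 and 44670, 44226, 22227 and 19811 CPM in endostatin 1 to 4. The groups overlapped, since both batch 1 endostatin libraries exceeded both batch 2 controls. No member had all 4 endostatin values below all 4 controls, as 0.698% of genes did.

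Of the mitochondrial mRNAs, mt-Nd3 (-0.61 ± 0.14), mt-Atp8 (-0.65 ± 0.21), mt-Nd4l (-0.53 ± 0.19) and mt-Co3 (-0.43 ± 0.18) had an unadjusted edgeR p under 0.05, as did 0.896% of all genes in the lower direction, and all 4 had an adjusted p of 1.00. mt-Atp8, a small subunit of the membrane part of ATP synthase, stood at 482, 542, 206 and 215 CPM in the controls and 514, 383, 104 and 89.2 CPM with endostatin. mt-Nd4l, a small complex I subunit, stood at 780, 828, 362 and 428 CPM in the controls and 725, 707, 246 and 177 CPM with endostatin. In batch 2 both endostatin values of each gene lie well below both controls; in batch 1 the endostatin values of mt-Nd4l and endostatin 2 of mt-Atp8 lie below the controls by less, and endostatin 1 of mt-Atp8 lies between them.

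Within batch 1 the median treatment difference of the 13 genes was -0.20, and 10 had both endostatin values below both controls (15.3% of all genes). Within batch 2 the median was -0.66 and 11 of 13 had that order (13.5% of all genes). The test of the difference between the batches called 0 genes in edgeR (lowest adjusted p = 0.471; 527, 3.47%, at an unadjusted p under 0.05), 28 in DESeq2 (0.184%) and 0 in limma-voom. Among members its smallest unadjusted p values were 0.0109 for mt-Atp8, 0.0281 for mt-Nd3, 0.0341 for Ndufaf6 and 0.0431 for mt-Nd4l, each with an adjusted p of 1.00. For mt-Atp8 the treatment difference was -0.19 in batch 1 (95% interval -0.64 to 0.26) and -1.12 in batch 2 (-1.58 to -0.66). For mt-Co1 the same values were -0.25 (-1.23 to 0.72) and -0.26 (-1.23 to 0.72).

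The shares of reads given to the nuclear copies also differed among libraries. Gm28438 took 51.5% to 61.5% of the reads it divides with mt-Nd3. Gm28661 took 8.54% to 16.3% of those it divides with mt-Co2 in 6 libraries and 3.69% and 3.19% in endostatin 3 and endostatin 4. With copies added, mt-Co2, a catalytic core subunit of complex IV, had a treatment difference of -0.43 ± 0.20 in place of -0.39 ± 0.19 and a batch difference of -1.02 ± 0.20 in place of -0.89 ± 0.19. mt-Atp6, the proton channel subunit of ATP synthase, moved from -0.42 to -0.44 for treatment, and its batch difference with copies was -1.07 ± 0.19. Adding the copies to mt-Nd3 gave a treatment difference of -0.73 ± 0.15 (adjusted p = 1.00). Gm10925 took 0% to 6.39% of the reads it divides with mt-Atp6, with the lowest shares in endostatin 3 (0%) and endostatin 4 (0.546%). Gm13340, which matches mt-Co1 at 97.6% identity over 1545 bases, had a mean of 2.0 CPM. Another 13 features that match mitochondrial mRNAs had a mean under 1 CPM.

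The nuclear subunits were mostly highest in 2 of the controls. Relative to each gene's own mean, the median log2 level of the 83 nuclear genes was 0.32, -0.02, -0.23 and 0.25 in controls 1 to 4 and 0.02, 0.00, -0.05 and -0.27 in endostatin 1 to 4. Control 1 or control 4 was the highest library for 75 of the 83, against 23.7% of all genes, and these are the libraries with the raised muscle markers. Endostatin 4 was the lowest library for 41 (18.4% of all genes) and control 3 for 30, and together these libraries were lowest for 39.5% of all genes. Both had raised sums of oviduct and uterus markers, that of endostatin 4 mostly from Ltf. Cox6a2, the heart and skeletal muscle form of a complex IV subunit, stood at 1.31 and 1.92 CPM in control 1 and control 4 and at 0 to 0.315 CPM in the 6 other libraries. Other complex IV forms of heart and muscle had another order. Cox7a1 stood at 4.41 and 4.33 CPM in control 1 and control 4 and Cox8b at 11.8 and 22.3 CPM, and both were highest in control 3 (6.03 and 23.9 CPM). The part of muscle RNA or of other tissue in these levels was not tested. On the same scale the mitochondrial mRNAs stood at 0.65 and 0.67 in controls 1 and 2 but at -0.01 in control 4, so the order of libraries was not shared by the genomes.

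**Figure D3:**
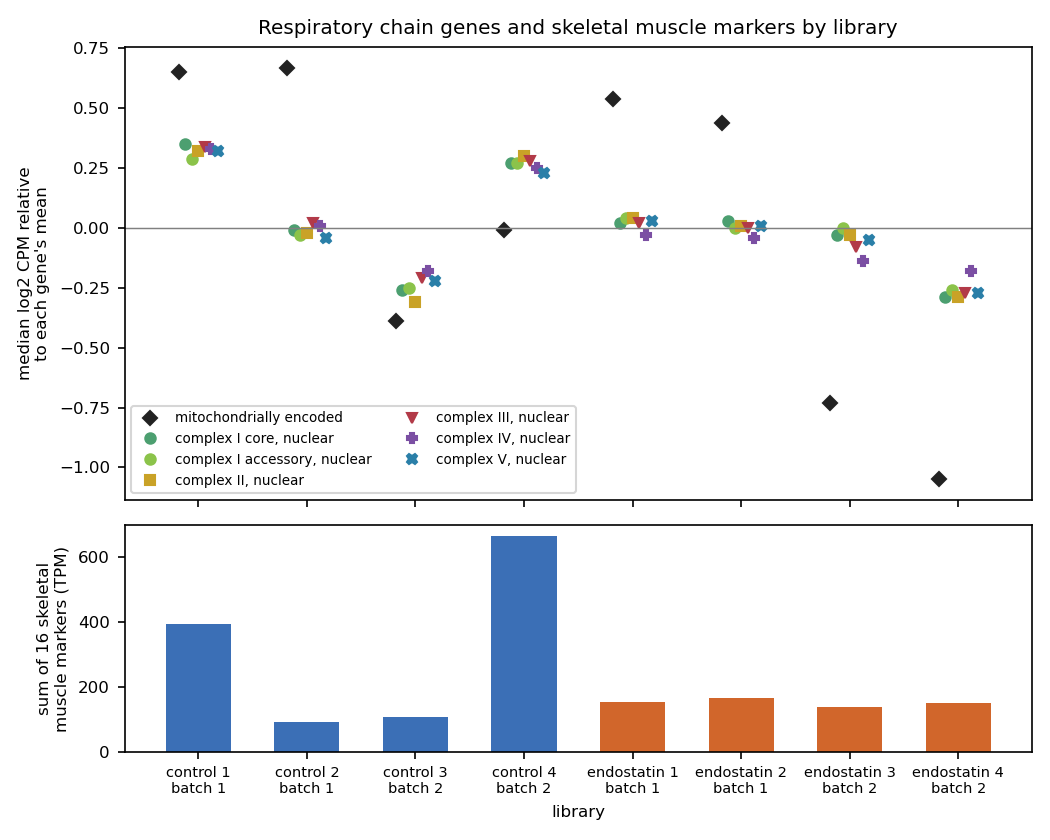
Upper panel: median log2 CPM of each class of genes in each library, relative to each gene's mean over the 8 libraries, for the mitochondrial genes and the nuclear genes of complexes I to V. Lower panel: summed TPM of 16 skeletal muscle markers in the same libraries. Nuclear classes move together and are highest in control 1 and control 4, where the muscle sum is 394 and 666 TPM, while the mitochondrial genes are high in all 4 libraries of batch 1.

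For the treatment, 80 of the 83 nuclear genes had a log2 fold change below 0 with a median of -0.16, 3 had an unadjusted edgeR p under 0.05 (lower), and 0 passed: Cox6c, Ndufb5 and Cox7a1 were the 3. Without control 1 and control 4 the median was 0.06 and 22 of 83 were below 0 (50% of all genes in that fit). Leaving out control 4 alone gave a median of -0.06 and leaving out control 1 alone -0.09. Because these controls hold the highest values of most of these genes, leaving them out raises the median by construction, and these values are a description only. The mitochondrial median was -0.35 without these 2 controls, with 12 of 13 below 0. For the batch, 70 of 83 nuclear genes were below 0 (47.9% of all genes), 0 passed, and the median moved from -0.15 to 0.02 without control 3 and endostatin 4, the batch 2 libraries in which most of these genes were lowest, so that this shift too follows from the choice of libraries.

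**Figure D4:**
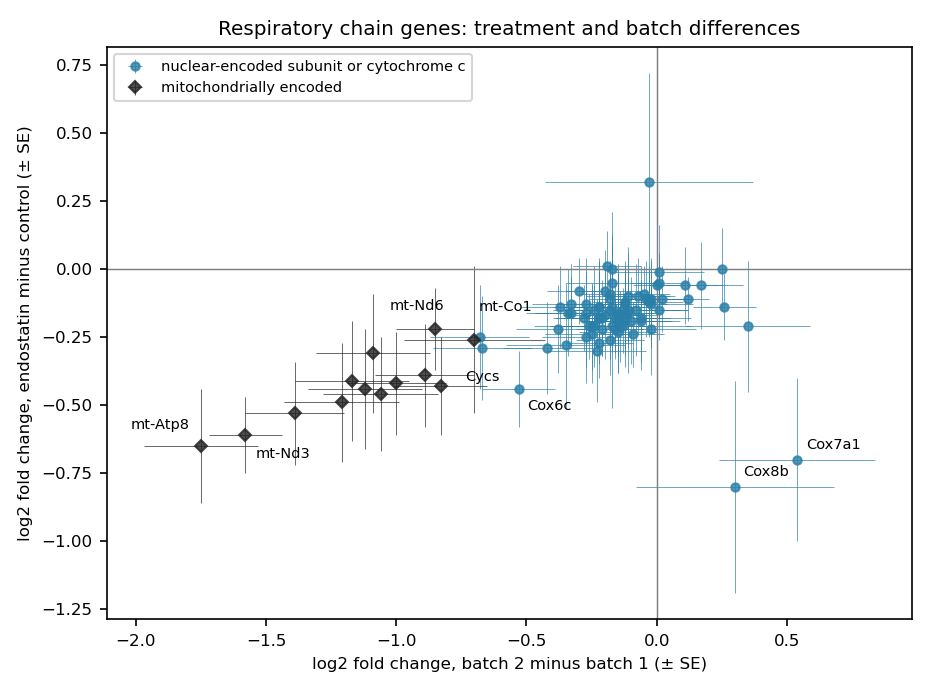
Log2 fold change for endostatin minus control (vertical axis) against that for batch 2 minus batch 1 (horizontal axis), each ± SE from the same edgeR fit, for 13 mitochondrial and 83 nuclear genes. Mitochondrial genes lie from -1.75 to -0.70 on the batch axis and from -0.65 to -0.22 on the treatment axis; the nuclear genes gather near -0.15 on both, with Atp5k (-0.68, not named in the plot), Cycs and Cox6c to the left and Cox7a1 and Cox8b at the lower right.

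Complex I, which takes electrons from NADH, has 7 nuclear core subunits that carry the flavin and the iron-sulphur clusters. Their summed level was 991, 794, 650 and 971 CPM in controls 1 to 4 and 797, 795, 778 and 676 CPM in endostatin 1 to 4. All 7 treatment differences were below 0, with the lowest at -0.23 ± 0.15 in Ndufs8, and 0 passed. Ndufv1, which binds NADH and the flavin, had a difference of -0.22 ± 0.17. The 29 accessory subunits, which surround and stabilise the core, had treatment differences from -0.28 (Ndufa11) to 0.01 (Ndufb4), with 28 below 0. Ndufb5, a membrane arm subunit, stood at 70.7, 57.8, 50.3 and 58.5 CPM in the controls and 57.4, 50.6, 47.7 and 47.1 CPM with endostatin. Control 3 lies among the endostatin values, and the difference was -0.22 ± 0.10 (adjusted p = 1.00). Ndufb4 includes reads that its processed pseudogene Ndufb4c, at a mean of 36.9 CPM, could share.

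Complex II, succinate dehydrogenase, is encoded by nuclear genes alone, so it has no mitochondrial counterpart in these data. Sdha, the flavin subunit, stood at 609, 481, 389 and 609 CPM in controls 1 to 4 and 469, 484, 477 and 404 CPM in endostatin 1 to 4. Control 1 and control 4 were high and control 3 was the lowest of all. Treatment differences of the 4 subunits lay between -0.25 ± 0.17 (Sdhb, the iron-sulphur subunit) and -0.08 ± 0.15 (Sdhc, a membrane anchor). Without control 1 and control 4 all 4 were above 0, in a fit where 50% of all genes were below 0. Since control 1 or control 4 was the highest library for all 4, leaving them out raises these values by construction.

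Complex III hands electrons from ubiquinol to cytochrome c. Its 8 nuclear subunits had treatment differences from -0.30 ± 0.19 (Uqcrq) to -0.08 ± 0.12 (Uqcrb), 0 of which passed. Uqcrfs1, the Rieske iron-sulphur protein, stood at 152, 121, 105 and 142 CPM in the controls and 106, 115, 114 and 103 CPM with endostatin, so control 3 lay inside the endostatin range. mt-Cytb, which works with it in the same complex, had batch values that did not overlap, whereas Uqcrfs1 had a batch difference of -0.09 ± 0.12.

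Cycs was the nuclear member whose batches did not overlap. It encodes the soluble carrier between complexes III and IV. It stood at 89, 66.3, 46.8 and 62.4 CPM in controls 1 to 4 and at 79.3, 62.9, 48.5 and 30.8 CPM in endostatin 1 to 4. All batch 2 values were below all batch 1 values, by the narrow margin of 62.4 against 62.9 CPM. No other of the 92 nuclear members showed this order, which 3.29% of all genes tested had. The batch difference was -0.67 ± 0.19 (adjusted p = 0.463) and the treatment difference -0.29 ± 0.19.

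Complex IV, cytochrome c oxidase, reduces oxygen, and several of its nuclear subunits exist in a common and a tissue-restricted form. The 12 common-form genes, with Cox7a2l counted among them as a relative of Cox7a2, had a median treatment difference of -0.17. The values ran from -0.44 (Cox6c) to -0.00 (Cox7a2l). Cox6c, a small membrane subunit, stood at 91.9, 67.5, 69.4 and 57.4 CPM in the controls and 69.1, 66.1, 42.3 and 38.9 CPM with endostatin. The lowest values were the batch 2 endostatin libraries. Its treatment difference was -0.44 ± 0.14 (adjusted p = 1.00), being -0.24 (95% interval -0.65 to 0.18) in batch 1 and -0.64 (-1.06 to -0.22) in batch 2, and its batch difference was -0.53 ± 0.14 (adjusted p = 0.435). Cox4i1, which helps to set the enzyme's regulation by ATP, stood at 306 to 455 CPM with a treatment difference of -0.11 ± 0.15.

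The tissue-restricted forms were below their common partners in every library. Cox4i2, the form known from lung, averaged 3.7 TPM against 1224 TPM for Cox4i1, and Cox7a1, the heart and muscle form also used in brown fat, averaged 32 TPM against 299 TPM for Cox7a2. Cox7a1 stood at 4.41, 1.92, 6.03 and 4.33 CPM in the controls and 2.5, 1.89, 2.78 and 2.87 CPM with endostatin. Control 2 lies with the endostatin libraries, and the difference was -0.70 ± 0.30 (adjusted p = 1.00). Cox8b, likewise a form of heart, muscle and brown fat, stood at 11.8, 19.9, 23.9 and 22.3 CPM in the controls and 11.6, 9.93, 4.54 and 17.8 CPM with endostatin, a difference of -0.80 ± 0.39. Per length Cox8b was not a rare mRNA: it averaged 176 TPM, with 311 TPM in control 3, against 1306 TPM for Cox8a. For both genes the highest library was control 3, which also had the highest sum of brown or beige fat markers, with Ucp1 at 91.8 TPM there and at 0 to 20.8 TPM in the 7 other libraries. The part of brown or beige fat cells in these differences was not tested. Cox6b2, known from testis, averaged 17.7 TPM, and Ndufa4l2, a hypoxia-inducible relative of Ndufa4, stood at 4.20 ± 0.519 CPM in controls and 4.26 ± 0.889 CPM with endostatin (SD, n = 4 each).

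**Figure D5:**
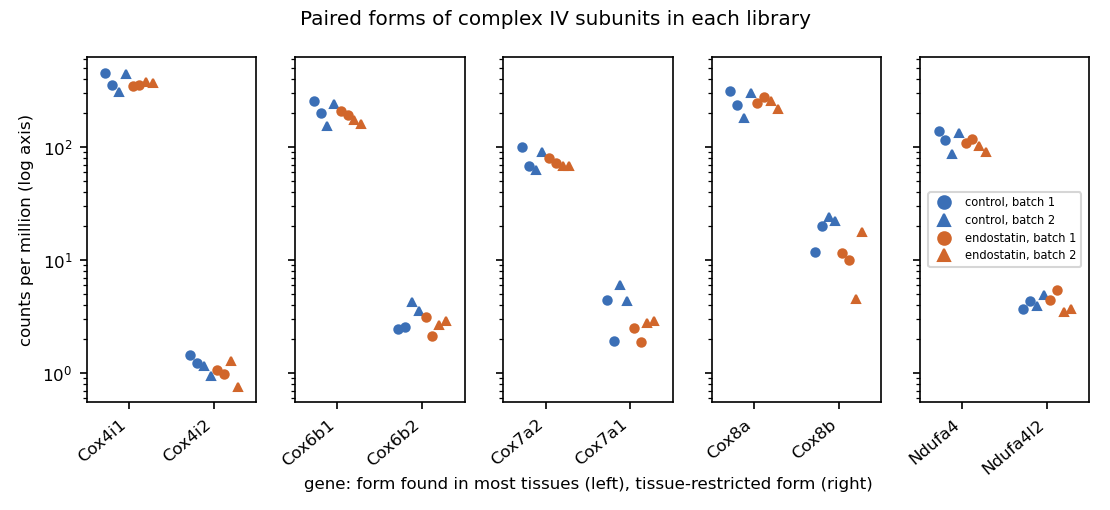
Level in CPM (log axis) of 5 pairs of complex IV genes in each of the 8 libraries, with the form of most tissues on the left of each panel and the tissue-restricted form on the right; colour gives the treatment and shape the batch. Each restricted form lies below its common partner in every library, and the spread between libraries is widest for Cox8b, from 4.54 to 23.9 CPM.

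Complex V, ATP synthase, had 17 nuclear members, and their sum was the largest of the nuclear complexes at 2831 to 4447 CPM. Atp5b stood at 1718, 1303, 1041 and 1728 CPM in controls 1 to 4 and 1327, 1390, 1355 and 1053 CPM in endostatin 1 to 4. Control 1 and control 4 were again highest, and the treatment difference was -0.18 ± 0.20. Over the complex, differences ran from -0.25 (Atp5k) to 0.32 ± 0.40, the latter in a further annotated gene for the Atp5o subunit (ENSMUSG00000116933), at 1.27 ± 0.394 CPM in controls. The 3 genes for the c-ring subunit, which encode the same mature protein, averaged 148 TPM (Atp5g1), 326 TPM (Atp5g2) and 518 TPM (Atp5g3). Atp5k, a small membrane subunit, had the lowest batch value of any nuclear gene at -0.68 ± 0.19 (adjusted p = 0.472), with 48.8, 32.6, 25.5 and 33.5 CPM in the controls and 40.1, 39.5, 25.6 and 17.1 CPM with endostatin. Here control 4 lies just above control 2, so the batches overlap.

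Many nuclear respiratory chain genes are known targets of NRF1, of ETS-family factors such as GABP, and of YY1. RefSeq promoter windows of 300 bases (250 before and 50 after the start, GRCm38.p6) were matched for 68 of the 83 nuclear genes. On either strand, the NRF1 motif (GCGCA, then any base, then GCGC) was found in 17 of them (25%) and in 5.19% of 27025 genes. Those 27025 are all genes with a promoter window, not only those tested here, and were not matched for level or base content. CCGGAAG (ETS) was found in 16 (23.5%) against 9.93%, and AANATGGCG (YY1) in 10 (14.7%) against 2.76%; 31 of the 68 had none of the 3, and matches of different motifs may overlap. The median batch difference was -0.19 in the 17 genes with an NRF1 match and -0.15 in the 51 without, and the median treatment differences were -0.16 and -0.17. The 250 bases before the start of Cox6a1 (chr5:115348959-115349208), Atp5k (chr5:108434400-108434649) and Ndufs6 (chr13:73328483-73328732), all on the minus strand and written 5′ to 3′, are shown as examples from complexes IV, V and I of genes with an NRF1 match. Capitals mark the matches in the part shown: NRF1 runs of 10 bases and, in Cox6a1, an ETS run of 7 bases.
Cox6a1: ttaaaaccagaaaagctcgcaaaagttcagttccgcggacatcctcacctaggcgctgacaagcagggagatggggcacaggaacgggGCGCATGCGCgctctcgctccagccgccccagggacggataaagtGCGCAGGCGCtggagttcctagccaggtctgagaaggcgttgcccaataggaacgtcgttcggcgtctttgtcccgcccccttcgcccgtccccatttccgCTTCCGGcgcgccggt
Atp5k: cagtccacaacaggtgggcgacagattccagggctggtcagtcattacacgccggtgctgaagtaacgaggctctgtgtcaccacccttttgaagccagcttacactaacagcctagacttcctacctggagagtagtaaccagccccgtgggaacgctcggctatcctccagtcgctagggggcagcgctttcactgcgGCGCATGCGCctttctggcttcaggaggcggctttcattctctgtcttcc
Ndufs6: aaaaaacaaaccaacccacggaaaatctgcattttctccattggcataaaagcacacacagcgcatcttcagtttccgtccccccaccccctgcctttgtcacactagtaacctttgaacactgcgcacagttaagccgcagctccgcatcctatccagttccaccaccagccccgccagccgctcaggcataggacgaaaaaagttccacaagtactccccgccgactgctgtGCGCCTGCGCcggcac

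The 9 genes that share the name stem without being subunits had treatment differences from -0.48 to 0.11. Ndufaf4, an assembly factor of complex I, stood at 19.6, 13.5, 16.9 and 16.2 CPM in the controls and 17, 12.7, 10.1 and 8.88 CPM with endostatin, a difference of -0.48 ± 0.19 (adjusted p = 1.00). Ndufaf6, another such factor, stood at 3.39, 3.67, 4.87 and 4.49 CPM in the controls and 4.65, 4.76, 3.42 and 3.14 CPM with endostatin. It was higher with endostatin in batch 1 and lower in batch 2, with an interaction of -0.92 (adjusted p = 1.00).

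Other mitochondrial genes were counted for comparison, and 0 of them passed in either term. Among 13 genes of the tricarboxylic acid cycle, which feeds the chain with NADH and succinate, all 13 treatment differences were below 0 with a median of -0.19, and control 1 or control 4 was the highest library for all 13; without those libraries the median was 0.03 and 5 of 13 were below 0. Among 78 genes of the mitochondrial ribosome, which translates the 13 mitochondrial mRNAs, 71 were below 0 with a median of -0.09 (31 below 0 and a median of 0.03 without control 1 and control 4). The 39 assembly factors outside the members had a median of -0.09 with 31 below 0 (0.08 and 12 below 0 without those controls), and the 15 carriers and outer membrane proteins a median of -0.09 with 14 below 0 (0.02 and 7 below 0). Of 29 genes for mitochondrial transcription and RNA processing, 21 were below 0 with a median treatment difference of -0.10 (-0.04 and 18 below 0 without those controls) and a median batch difference of -0.05. Trmt10c, a subunit of the nuclease that cuts tRNAs out of the mitochondrial precursor, stood at 15.6, 16, 17.6 and 14.4 CPM in the controls and 12.9, 10.6, 11 and 13 CPM with endostatin. Its groups did not overlap (0.698% of all genes in this direction), with a difference of -0.42 ± 0.12 (adjusted p = 1.00). Mrps18a, a small ribosomal subunit protein, likewise had all endostatin values (23.2 to 26.8 CPM) below all controls (28.5 to 31.4 CPM), with a difference of -0.30 ± 0.09 (adjusted p = 1.00). The 10 regulators tested, such as Gabpa and Ppargc1a, had a median of -0.11 (-0.19 without those controls). For the lists whose genes were mostly highest in control 1 or control 4, leaving these libraries out raises the median by construction.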

How the data were processed

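Strand-specific total RNA libraries depleted of ribosomal RNA were made by the authors, per the labels' protocols. The deposited files hold estimated counts, TPM and effective lengths per transcript from Salmon on GRCm39, per the submitters' processing notes; the sources used here give no version or index. Of 115620 transcripts, 113710 (98.35%) matched GENCODE M21 (GRCm38) without the version suffix, which gave gene names, types and the coordinates and sequences printed, so these belong to GRCm38. Estimated counts were summed per gene, rounded, filtered with filterByExpr, scaled by TMM and fitted with edgeR 4.0.16 (R 4.3.3) by the quasi-likelihood test with batch and treatment, or their interaction; two-sided p-values were adjusted by Benjamini-Hochberg over 15184 genes (threshold 0.05), and the fit was tested on simulated data. SE and 95% intervals come from that fit. DESeq2 1.42.0 and limma-voom 3.58.1 were alternatives, with other scalings, filters and left-out libraries. A count of 0 allows 3 counts, 0.126 to 0.19 CPM. Nuclear copies were found with blastn 2.17.0 (at least 90% identity over 100 bases). Mitochondrial ribosomal RNAs and tRNAs were not analysed here.

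Members and lists were chosen with earlier results of these data known. Lists are therefore described by counts and medians, with no test. Named genes are the 13 mitochondrial ones, up to 2 per nuclear class, other list and direction by the smallest treatment p, members past the batch threshold, 4 by interaction p, and fixed isoform pairs and core subunits. Atp5k, Cox6c, Cycs, Ndufaf4 and the genes at a range's end were also chosen after their values were seen where the rule did not name them.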

Additional observations from a re-analysis of the deposited data

Results flagged for a closer look

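Among 158 sets of 4 libraries examined (single genes and sums, in each group), 10 had a library set apart from the other 3 by Dixon's test at its 95% critical value, and chance alone flags about 1 in 20 such sets. Endostatin 4 was the library in 9 of them. Cox7a2l, a relative of the complex IV subunit Cox7a2, stood at 144 CPM there against 90.4 to 93.6 CPM in the other endostatin libraries. Another 3 genes were low in that library: Atp5g3 at 114 CPM against 151 to 155, Sdhc at 109 CPM against 141 to 144, and the ADP/ATP carrier Slc25a5 at 192 CPM against 211 to 214. Summed levels in endostatin 4 were low for the complex I accessory subunits (1367 CPM against 1656 to 1688), the complex I core (676 against 778 to 797), complex II (681 against 827 to 847), complex III (770 against 923 to 952) and complex V (2831 against 3472 to 3595). These sums hold the same library's values and are not independent of each other. Endostatin 4 had 446 TPM of oviduct and uterus markers, 298 TPM of it from Ltf, and their part in these values was not tested. In the controls, Ucp2 stood at 148 CPM in control 1 against 202 to 205 CPM in the other 3.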

How the results depend on the processing

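The mitochondrial medians stayed below 0 in every alternative run: from -0.49 to -0.31 for treatment and from -1.25 to -0.97 for batch when each library was left out in turn. The nuclear medians ranged from -0.26 to -0.06 for treatment and from -0.26 to -0.08 for batch in those fits; without control 1 and control 4, an alternative chosen after seeing the data, the treatment median was 0.06. The treatment call count was 0 by edgeR and 4 by DESeq2, and the interaction count 0 and 28. The batch count of 6 genes became 171 with DESeq2, 10 with limma-voom, 2 with library size only, 11 with no filter on low counts, 3 with protein-coding genes only, 0 without control 1 and control 4, 27 without control 3 and endostatin 4 (also chosen after seeing the data), and 0 to 18 when a library was left out (0 without control 1, control 2, endostatin 2 or endostatin 3, 3 without endostatin 1 and 18 without endostatin 4); the cause was not tested. Whether replicate numbers pair the samples could not be settled. Deviations of same-numbered libraries from group means, which keep the batch they share, correlated at 0.211, 0.144, -0.0732 and -0.295. Deviations from group-by-batch means correlated at 0.0125 in batch 1 and -0.352 in batch 2, a single value per batch that cannot exclude pairing. A replicate block gave 0 treatment calls with medians of -0.43 (mitochondrial) and -0.15 (nuclear). Of 2658 alternative values for 65 single genes, 2500 kept their sign and their side of the threshold, 138 with no call changed sign, 6 lost a call, 14 gained one and 0 reversed a call, of which there were few to reverse; without control 1 and control 4, 22 of 64 genes changed sign for treatment. Depth limits the rarest members, near 1 CPM, most.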
